A study of Homo sapiens with 18 samples.

Results

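The genes described here encode the subunits of the receptors for glutamate and GABA, the main excitatory and inhibitory transmitters of the brain. They were chosen by symbol: every AMPA (GRIA), kainate (GRIK), delta (GRID), NMDA (GRIN) and metabotropic (GRM) glutamate receptor gene and every GABA-A (GABR) and GABA-B (GABBR) receptor gene in the table, 47 of 26372 genes in all. By class these were 4 AMPA, 5 kainate, 2 delta, 7 NMDA, 8 metabotropic, 19 GABA-A and 2 GABA-B receptor genes. The rule set no limit on any measured value, but earlier results of these data were known when the genes were chosen.

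Ionotropic glutamate receptors are cation channels built from 4 subunits of one family, and the subunits present set calcium entry, kinetics and transmitter affinity. Metabotropic glutamate receptors act through G proteins; the group III members, among them GRM7 and GRM8, inhibit adenylyl cyclase and are known mainly from presynaptic terminals. GABA-A receptors are chloride channels of 5 subunits, commonly of the alpha, beta and gamma types. The GABA-B receptor is a G-protein-coupled pair in which GABBR1 binds GABA while GABBR2 carries it to the cell surface and couples to the G protein.

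RNA was measured by RNA-seq after ribosomal RNA depletion in the human neuroblastoma line SH-SY5Y, infected with lentivirus made from the FUGW plasmid that carried ZNHIT3-WT, ZNHIT3-C14R or a ZNHIT3 deletion; ZNHIT3 is a zinc-finger protein linked to the assembly of small nucleolar ribonucleoproteins. All 3 lines were sampled at day 0 and after 18 days in serum-free neurobasal/B27 medium holding all-trans retinoic acid (10 μM), dibutyryl cyclic AMP (2 mM), KCl (20 mM) and BDNF (50 ng/ml), and each of the 6 groups had 3 libraries. The deletion libraries carry the treatment labels 251-254, 251-255 and 251-256 in replicates 1, 2 and 3, and were analysed as one group by their titles; no uninfected cells were among the samples, and the endogenous ZNHIT3 gene was not stated to be removed. Nothing in the labels says whether the 3 libraries of a group came from separate infections, so p-values measure only the spread between these libraries.

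Levels are given in FPKM, a fragment count corrected for the length of the transcript and the size of the library, which allows levels of different genes to be compared per length. FPKM do not give absolute depth. Steps left by single fragments in low values gave relative depths of 59.1% to 84.6% of the deepest library at day 0 and 82.0% to 100% at day 18. ZNHIT3 lay between 530.6 and 542 FPKM in WT, 418.9 and 432 in C14R and 292 and 310.1 in deletion libraries at day 0. At day 18 the ranges were 1103 to 1193, 599.7 to 755.8 and 294.3 to 312.8. Of 10 sympathoadrenal neuroblastoma markers 9 had a mean of at least 1 FPKM, but TH, the rate-limiting enzyme of catecholamine synthesis, did not exceed 0.0804 FPKM at day 0 and 1.02 at day 18. All 8 general neuronal markers passed that mean, and their summed level was 890 to 931 FPKM at day 0 and 1991 to 2200.0 at day 18. Markers of cortical excitatory neurons summed to at most 2.02 FPKM in any library and those of inhibitory interneurons to at most 1.28, with NEUROD6 and GAD2 listed at 0 throughout. Deletion replicate 1 of day 0 was the highest or lowest of its day for 9 of the 14 receptor genes tested. FPKM sums ran from 987600 to 2222000 at day 0 and from 553500 to 989600 at day 18, so they differed between the days. C14R replicate 1 of day 18 had the smallest sum. It was the highest or lowest of the 9 day 18 libraries for 7 of the 14 receptor genes. Values without that library are given where they matter.

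Of the 47 genes, 14 had a mean of at least 1 FPKM over the 18 libraries and were tested; 33 did not, and 3 of those (GABRA2, GABRA6 and GABRR3) were listed at 0 in all libraries. Those tested included GRIA2, GRIA3, GRIA4, GRIK2, GRIK4, GRIK5, GRIN1, GRIN2D, GRM7, GRM8, GABRA3, GABRG3 and GABBR1. GRIN2D (mean 1.19) was the lowest of them and GRM3 (0.998) the highest of those left out. GRIK4, GRIN2D and GABRG3 passed the limit through their day 18 values alone, so a change between the days was built into their selection. In all, 13 genes stayed under 0.1 FPKM in every library, the 3 listed at 0 included.

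**Figure D1:**
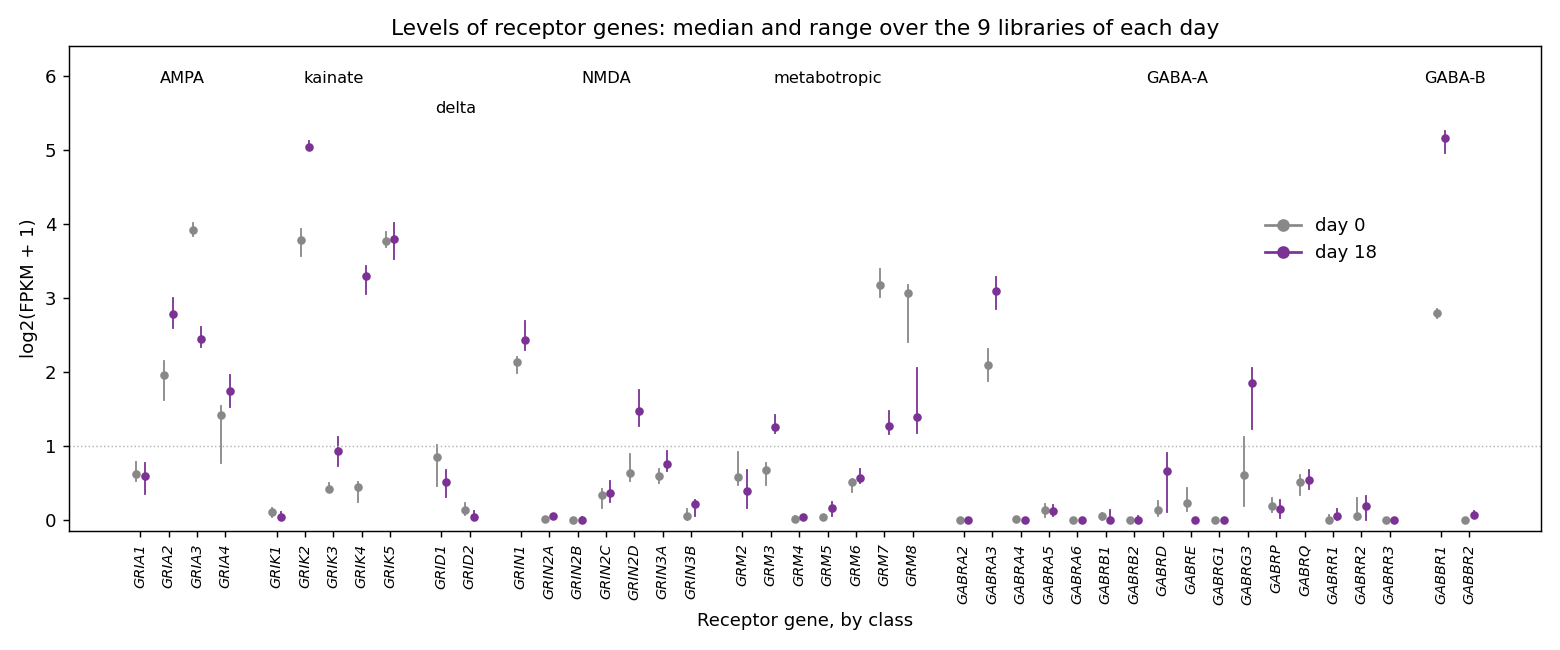
Level of the receptor genes reported here on the log2(FPKM + 1) scale, by receptor class; points are medians and lines the range over the 9 libraries of day 0 (grey) and of day 18 (purple), and the dotted line marks 1 FPKM. GABBR1 and GRIK2 were among the highest genes at day 18, and most GABA-A receptor genes lay near 0 on both days.

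The promoters of the genes with the largest changes in WT are shown because the differentiation medium holds retinoic acid and a cyclic AMP analogue, whose best known DNA elements are AGGTCA, the half-site of nuclear receptors, and TGACGTCA, the full site of CREB. The sequences are the 250 bases before each start in RefSeq (GRCh38.p14), 5′ to 3′ on the strand of the gene, in lower case with any match to either motif on either strand in capitals. GRIK4 has 2 annotated starts, given in turn.
GABBR1, chr6:29628014-29628263, minus strand: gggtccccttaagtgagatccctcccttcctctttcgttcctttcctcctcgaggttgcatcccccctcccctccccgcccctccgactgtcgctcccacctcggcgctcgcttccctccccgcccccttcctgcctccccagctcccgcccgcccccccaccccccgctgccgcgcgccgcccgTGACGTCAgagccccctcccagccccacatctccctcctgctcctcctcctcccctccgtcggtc
GRIK4, chr11:120511498-120511747, plus strand: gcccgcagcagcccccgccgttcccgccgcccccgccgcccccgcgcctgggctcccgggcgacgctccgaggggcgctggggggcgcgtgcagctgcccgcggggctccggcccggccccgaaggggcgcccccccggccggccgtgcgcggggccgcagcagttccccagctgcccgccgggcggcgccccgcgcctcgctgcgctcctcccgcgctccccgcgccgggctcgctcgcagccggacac
GRIK4, chr11:120564184-120564433, plus strand: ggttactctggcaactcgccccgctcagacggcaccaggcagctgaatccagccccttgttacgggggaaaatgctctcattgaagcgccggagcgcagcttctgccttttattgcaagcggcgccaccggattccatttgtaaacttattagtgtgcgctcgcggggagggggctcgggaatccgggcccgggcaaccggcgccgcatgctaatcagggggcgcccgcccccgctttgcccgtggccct
GRM7, chr3:6860865-6861114, plus strand: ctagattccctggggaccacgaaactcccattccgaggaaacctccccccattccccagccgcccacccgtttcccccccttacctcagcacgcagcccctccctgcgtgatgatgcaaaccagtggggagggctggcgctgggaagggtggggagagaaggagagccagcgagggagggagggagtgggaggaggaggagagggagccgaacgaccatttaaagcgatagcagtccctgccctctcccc

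The GABBR1 window held one TGACGTCA, whose first base lies at -65 from the start, and the GRIK4 and GRM7 windows held neither motif. Over all 35116 promoters of the RefSeq table, 1.65% held TGACGTCA and 12.1% AGGTCA in these 250 bases. RefSeq entries were found for 34 of the 47 genes, with 51 starts; 1 of the 51 (GABBR1) held TGACGTCA and 0 held AGGTCA. A match is a description of the letters and was not tested as a binding site.

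Most tested receptor genes differed in level between day 0 and day 18 in all 3 lines. WT had 10 of the 14 higher and 3 lower, C14R 9 higher and 3 lower, and the deletion 10 higher and 3 lower (limma, Benjamini-Hochberg adjusted p under 0.05). These counts stand against 72.2%, 72.9% and 73.0% of all 13785 genes tested, with 38.2%, 37.9% and 38.6% higher and 34.0%, 35.0% and 34.4% lower, so the share of changed receptor genes was read as no more than a description, also because of the selection of GRIK4, GRIN2D and GABRG3. The median log2 change over the 14 genes was 0.76 in WT, 0.79 in C14R and 0.91 with the deletion, against 0.03, 0.02 and 0.03 over all genes. That median also holds GRIK4, GRIN2D and GABRG3, whose rise was built into their selection, and was read as a description. The lines share no libraries in these comparisons, but one fit gave each gene a single estimate of spread for all 3. Of the 14 genes, 12 passed in all 3 lines with the same direction, 9 higher and 3 lower. These 12 include GRIK4, GRIN2D and GABRG3. The share of all genes that passed in all 3 lines is not given here, so this count was read as a description. Over the 9 libraries of each day, 9 of the 14 genes had every day 18 value above every day 0 value (29.8% of all genes tested), 3 had every value below (26.9%), and GRIA4 and GRIK5 overlapped. GRIK4, GRIN2D and GABRG3 are among those 9, so the separation was likewise read as a description.

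**Figure D2:**
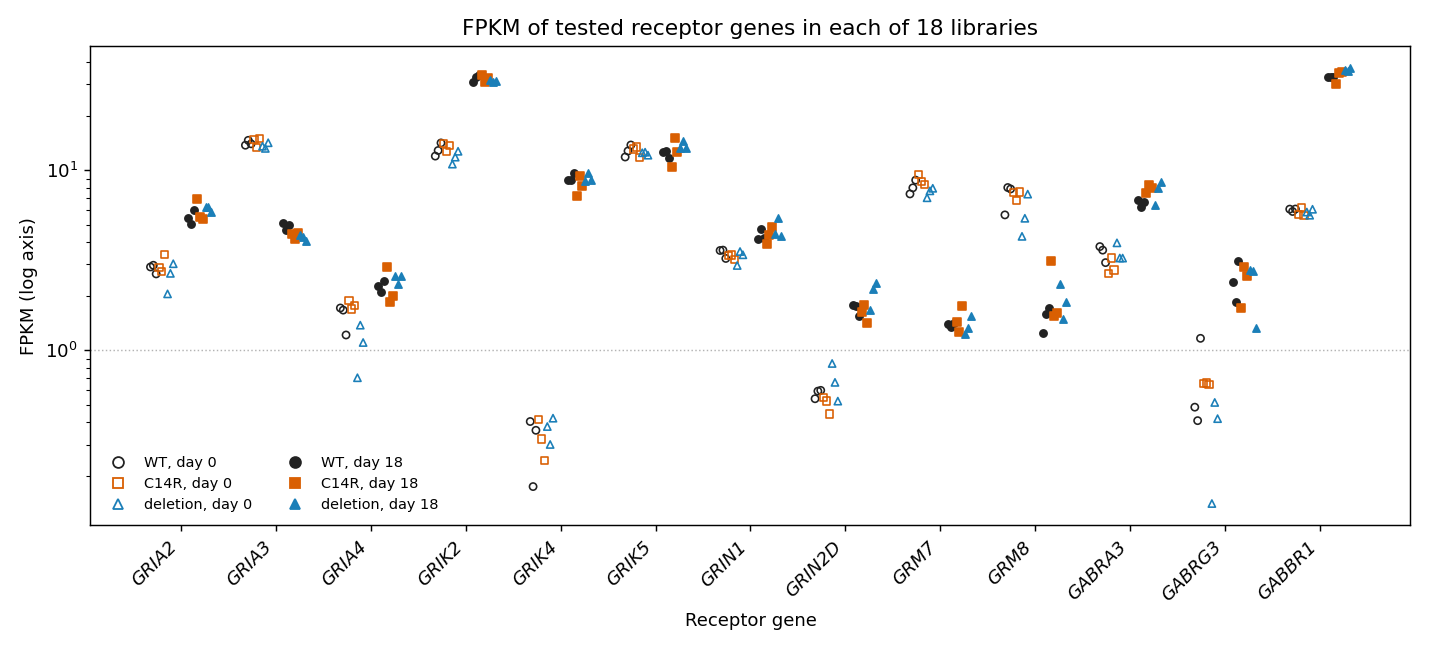
FPKM of the tested receptor genes reported here in each library on a log axis; open symbols are day 0, filled symbols day 18, and shape and colour give the construct. GRIK4 rose from at most 0.42 to at least 7.25 FPKM, GRIA3, GRM7 and GRM8 fell, and the 3 constructs overlapped within most genes and days.

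Among the AMPA receptor genes the leading subunit changed from GRIA3 to GRIA2. GRIA3 (chromosome X, 123184153 to 123490915, plus strand), one of the subunits that leave the channel open to calcium when GRIA2 is absent, was the highest AMPA gene at day 0. Its FPKM at day 0 were 13.8, 14.7 and 14.04 in WT, 14.9, 13.4 and 15.1 in C14R, and 13.6, 13.2 and 14.2 in deletion libraries. At day 18 they were 5.11, 4.67 and 4.95 in WT, 4.42, 4.17 and 4.51 in C14R, and 4.36, 4.25 and 4.04 in deletion libraries. All 9 libraries of day 18 lay below all 9 of day 0. On the log2(FPKM + 1) scale GRIA3 fell by 1.36 in WT (SE 0.06, limma adjusted p = 6.49e-13), by 1.52 in C14R (adjusted p = 1.46e-13) and by 1.49 in deletion libraries (adjusted p = 1.75e-13).

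GRIA2 (chromosome 4, 157204182 to 157366075, plus strand) encodes the subunit whose edited form keeps AMPA receptors closed to calcium. It rose in WT from 2.85 ± 0.1645 to 5.49 ± 0.484 FPKM (SD, n = 3). This was 0.75 on the log2 scale (SE 0.105, limma adjusted p = 4.94e-06). The log2 change was 0.79 in C14R (adjusted p = 3.08e-06) and 1.00 in deletion libraries (adjusted p = 1.49e-07), and the days did not overlap in any line. FPKM do not report RNA editing, so the edited share of GRIA2 was not measured here.

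GRIA4 (chromosome 11, 105609994 to 105982092, plus strand), a subunit with fast kinetics, rose in WT by 0.37 (SE 0.13, limma adjusted p = 0.0141) and in deletion libraries by 0.78 (adjusted p = 2.94e-05). In C14R its log2 change was 0.21 (adjusted p = 0.148), and the libraries of the 2 days overlapped; without C14R replicate 1 of day 18 it was 0.07 (adjusted p = 0.613). The WT call for GRIA4 was lost with quantile normalization (0.27, adjusted p = 0.0843) and without WT replicate 3 of day 0 (0.28, adjusted p = 0.0788). GRIA1, the AMPA subunit most tied to activity-dependent insertion at synapses, stayed under the limit for testing, at 0.442 to 0.713 FPKM at day 0 and 0.269 to 0.695 at day 18.

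As a share of the summed FPKM of the 4 AMPA genes, GRIA3 held 72.5% to 80.0% at day 0 and 29.9% to 38.3% at day 18. The share of GRIA2 was 12.1% to 16.4% at day 0 and 40.8% to 47% at day 18. GRIA4 held 4.14% to 9.34% and then 15.8% to 20.0%. The sum itself was 17.0 to 20.8 FPKM at day 0 and 11.8 to 14.8 at day 18, so the added GRIA2 and GRIA4 did not make up for the loss of GRIA3. The shares at the 2 days did not overlap for any of these 3 genes.

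**Figure D3:**
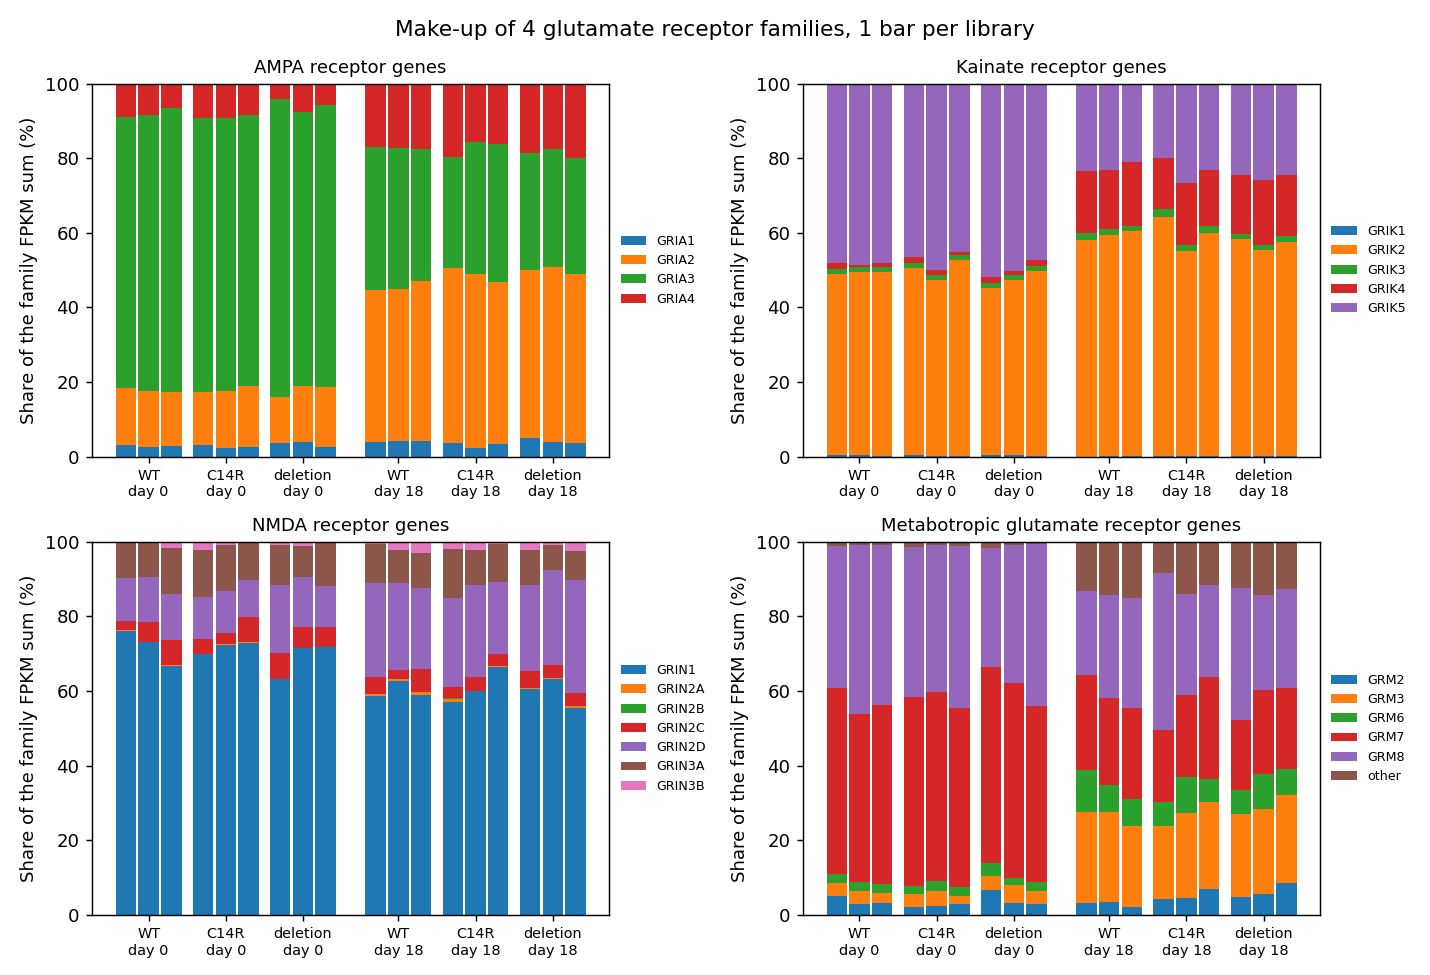
Share of each gene in the summed FPKM of its family, with 1 stacked bar per library, for AMPA, kainate, NMDA and metabotropic glutamate receptor genes. GRIA3 gives way to GRIA2 and GRIA4, and GRIK4 appears in the kainate bars at day 18. GRM3 and GRM6 take a larger share of the metabotropic bars at day 18. The FPKM of GRM6 itself overlapped between the days, with 0.3 to 0.467 at day 0 and 0.405 to 0.607 at day 18. Metabotropic genes other than GRM2, GRM3, GRM6, GRM7 and GRM8 are drawn as one class.

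The kainate receptor genes showed the largest single change of the receptor genes tested. GRIK4 (chromosome 11, 120511700 to 120988904, plus strand) encodes a high-affinity subunit that forms channels only together with GRIK1, GRIK2 or GRIK3. At day 0 its FPKM were 0.403, 0.175 and 0.360 in WT, 0.414, 0.322 and 0.244 in C14R, and 0.378, 0.3003 and 0.420 in deletion libraries. At day 18 they were 8.86, 8.80 and 9.70 in WT, 7.25, 9.30 and 8.18 in C14R, and 8.71, 9.73 and 8.83 in deletion libraries. The ratio of the mean FPKM was 29.2 in WT, 25.2 in C14R and 24.8 with the deletion, and the lowest library of day 18 lay far above the highest of day 0. On the log2(FPKM + 1) scale GRIK4 rose by 2.95 in WT (SE 0.09, limma adjusted p = 1.72e-14), 2.80 in C14R (adjusted p = 3.61e-14) and 2.88 in deletion libraries (adjusted p = 2.14e-14). With a pseudocount of 0.1 the GRIK4 change was 4.53 in WT and 4.30 in C14R, since the larger pseudocount shrinks changes from low values.

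GRIK2 (chromosome 6, 101181257 to 102070083, plus strand), the low-affinity partner subunit, was level with GRIK5 at day 0 and the highest kainate gene at day 18. Its FPKM at day 0 were 12, 12.9 and 14.2 in WT, 14.2, 12.7 and 13.8 in C14R, and 10.8, 11.8 and 12.8 in deletion libraries. At day 18 they were 31.1, 32.8 and 33.8 in WT, 33.8, 31.1 and 32.6 in C14R, and 31.8, 30.9 and 31.2 in deletion libraries. The groups of the 2 days were far apart, and the log2 change was 1.26 in WT (SE 0.06, limma adjusted p = 8.27e-12), 1.21 in C14R (adjusted p = 1.55e-11) and 1.34 in deletion libraries (adjusted p = 3.5e-12).

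GRIK5 (chromosome 19, 41998321 to 42069498, minus strand), the other high-affinity subunit, did not pass the test in any line. It had 12.8 ± 0.987 FPKM (SD, n = 3) at day 0 and 12.4 ± 0.607 at day 18 in WT, and its log2 change was -0.05 with a 95% interval of -0.24 to 0.15 (limma adjusted p = 0.655). The log2 change was -0.02 in C14R (interval -0.21 to 0.18, adjusted p = 0.859) and 0.14 in deletion libraries (interval -0.06 to 0.33, adjusted p = 0.197). In deletion libraries GRIK5 passed in a fit of the 6 deletion libraries by themselves (0.14, adjusted p = 0.0337), and when small RNA genes were left out and the libraries rescaled (0.34, adjusted p = 0.00464). GRIK5 thus held 45.1% to 51.9% of the kainate FPKM at day 0 and 19.8% to 26.8% at day 18, while GRIK4 went from 0.665% to 1.64% at day 0 to 13.8% to 17.4% at day 18. GRIK3 had 0.342 ± 0.022 FPKM at day 0 and 0.816 ± 0.141 at day 18 in WT, and GRIK1 did not exceed 0.119 FPKM in any library.

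GRIN1 held most of the NMDA receptor FPKM on both days, and the genes of the subunits best known from the forebrain were near 0. GRIN1 (chromosome 9, 137138390 to 137168762, plus strand) encodes the subunit that every NMDA receptor contains. Its FPKM at day 0 were 3.59, 3.60 and 3.24 in WT, 3.38, 3.39 and 3.20 in C14R, and 2.96, 3.54 and 3.40 in deletion libraries. At day 18 they were 4.17, 4.72 and 4.21 in WT, 3.91, 4.36 and 4.85 in C14R, and 4.42, 5.46 and 4.34 in deletion libraries. The days did not overlap, and the log2 change of GRIN1 was 0.26 in WT (SE 0.09, limma adjusted p = 0.0126), 0.31 in C14R (adjusted p = 0.00408) and 0.41 in deletion libraries (adjusted p = 0.000399). The WT call for GRIN1 was lost without WT replicate 3 of day 0 (0.22, adjusted p = 0.0543) and without WT replicate 2 of day 18 (0.21, adjusted p = 0.0605). An exon of GRIN1 overlaps LRRC26 on the other strand, which did not exceed 0.592 FPKM.

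GRIN2D (chromosome 19, 48394875 to 48444931, plus strand) encodes a glutamate-binding subunit that gives slowly closing receptors. It had 0.578 ± 0.0336 FPKM (SD, n = 3) at day 0 and 1.70 ± 0.127 at day 18 in WT, with log2 changes of 0.78 (SE 0.10, limma adjusted p = 2.36e-06) in WT, 0.79 in C14R (adjusted p = 1.87e-06) and 0.87 with the deletion (adjusted p = 5.49e-07). With a pseudocount of 0.1 the GRIN2D changes were 1.41, 1.49 and 1.49 in WT, C14R and deletion libraries. GRIN2A reached at most 0.0479 FPKM and GRIN2B at most 0.0269, in a single library. GRIN3A was level with GRIN2D at day 0, with 8.41% to 12.5% of the NMDA receptor FPKM against 10.1% to 18.1%, and below it at day 18 (6.68% to 13.1% against 19.4% to 30.3%). GRIN2C lay between 0.117 and 0.333 FPKM at day 0 and between 0.184 and 0.44 at day 18. Of the summed FPKM of the 4 GRIN2 genes, GRIN2D held 59.4% to 81.5% at day 0 and 76.2% to 88.9% at day 18.

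The metabotropic receptor genes fell as a group sum because GRM7 and GRM8 fell. GRM7 (chromosome 3, 6770001 to 7741533, plus strand), a group III receptor of low glutamate affinity, had 7.40, 7.995 and 8.82 FPKM in WT, 9.51, 8.70 and 8.35 in C14R, and 7.04, 7.69 and 7.95 in deletion libraries at day 0. At day 18 its FPKM were 1.40, 1.35 and 1.42 in WT, 1.43, 1.26 and 1.77 in C14R, and 1.24, 1.33 and 1.54 in deletion libraries. Every day 18 library was below every day 0 library. The mean at day 0 was 5.82 times that at day 18 in WT, 5.94 times in C14R and 5.52 times with the deletion. The log2 change was -1.92 in WT (SE 0.09, limma adjusted p = 1.66e-12), -1.99 in C14R (adjusted p = 1.1e-12) and -1.85 in deletion libraries (adjusted p = 2.57e-12).

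GRM8 (chromosome 7, 126438598 to 127253294, minus strand), also of group III, had 5.66, 8.03 and 7.88 FPKM in WT, 7.51, 6.77 and 7.58 in C14R, and 4.30, 5.42 and 7.38 in deletion libraries at day 0. At day 18 its FPKM were 1.24, 1.59 and 1.72 in WT, 3.13, 1.54 and 1.61 in C14R, and 2.32, 1.49 and 1.86 in deletion libraries. The days were separate, though GRM8 varied more between replicates than GRM7. It fell by 1.69 in WT (SE 0.19, limma adjusted p = 2.87e-07), 1.46 in C14R (adjusted p = 1.81e-06) and 1.20 in deletion libraries (adjusted p = 1.78e-05). Without C14R replicate 1 of day 18, its highest value of that day, the change in C14R was -1.69.

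The other metabotropic genes lay under the limit for testing. GRM3, a group II receptor, had 0.556 ± 0.0593 FPKM (SD, n = 3) at day 0 and 1.33 ± 0.0646 at day 18 in WT. All 9 day 18 libraries were above all 9 day 0 libraries. With the lower limit of a mean of 0.1 FPKM, GRM3 rose in WT (log2 change 0.59, limma adjusted p = 1.27e-05). GRM2, the other group II receptor, fell in WT under that limit (-0.46, adjusted p = 0.000752), from 0.606 ± 0.116 to 0.163 ± 0.0438 FPKM, and did not pass in the other lines. The family sum was 13.4 to 18.7 FPKM at day 0 and 5.48 to 7.45 at day 18.

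Among the GABA-A receptor genes tested, GABRA3 and GABRG3 rose in all 3 lines. GABRA3 (chromosome X, 152166234 to 152451358, minus strand), an alpha subunit prominent in embryonic brain, rose in WT from 3.48 ± 0.365 to 6.57 ± 0.322 FPKM (SD, n = 3). The log2 change was 0.76 in WT (SE 0.10, limma adjusted p = 1.86e-06), 1.20 in C14R (adjusted p = 5.53e-09) and 0.95 in deletion libraries (adjusted p = 1.1e-07). It held 94.0% to 99.3% of the alpha subunit FPKM at day 0 and 97.9% to 99.5% at day 18.

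GABRG3 (chromosome 15, 26971282 to 27541991, plus strand), a gamma subunit, had 0.484, 0.407 and 1.17 FPKM in WT, 0.655, 0.660 and 0.646 in C14R, and 0.141, 0.514 and 0.418 in deletion libraries at day 0. At day 18 its FPKM were 2.41, 1.87 and 3.13 in WT, 1.73, 2.92 and 2.59 in C14R, and 2.79, 2.75 and 1.33 in deletion libraries. Its replicates were widely spread, but the lowest day 18 value was above the highest day 0 value. It rose by 1.05 in WT (SE 0.20, limma adjusted p = 0.000183), 1.03 in C14R (adjusted p = 0.000228) and 1.25 in deletion libraries (adjusted p = 2.94e-05). With a pseudocount of 0.1 these GABRG3 changes were 1.80, 1.70 and 2.42. GABRG3 overlaps exons of AC104002.3 on the other strand, and strand use in the counting is not given in the sources used here.

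GABRD, which encodes the delta subunit of receptors outside synapses, had 0.116 ± 0.0366 FPKM (SD, n = 3) at day 0 and 0.651 ± 0.191 at day 18 in WT. In deletion libraries at day 18 it had 0.669, 0.845 and 0.0704, so 1 library stayed at the day 0 level. GABRE, the epsilon subunit, had 0.0836 to 0.343 FPKM at day 0 and was listed at 0 in all 9 libraries of day 18. GABRQ, the theta subunit, lay between 0.259 and 0.524 FPKM at day 0 and between 0.332 and 0.596 at day 18.

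By position, 16 of the 19 GABA-A genes lie in clusters of neighbouring subunit genes in the GENCODE release 29 annotation (GRCh38). The 4 genes of the chromosome 4 cluster (46035769 to 47426444: GABRG1, GABRA2, GABRA4 and GABRB1) did not exceed 0.0983 FPKM in any library. GABRA5, next to GABRG3 on chromosome 15, stayed at or under 0.161 FPKM while GABRG3 was expressed. The X chromosome cluster (151953124 to 152657534: GABRE, GABRA3 and GABRQ) summed to 3.32 to 4.48 FPKM at day 0 and 6.80 to 9.07 at day 18. This is a description of where the genes lie and was not tested.

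The GABA-B receptor genes were split, with GABBR1 among the highest receptor genes and GABBR2 near 0. GABBR1 (chromosome 6, 29555629 to 29633976, minus strand) had 6.09, 5.91 and 6.10 FPKM in WT, 5.66, 6.20 and 5.62 in C14R, and 5.87, 5.63 and 6.08 in deletion libraries at day 0. At day 18 its FPKM were 33.0, 32.8 and 32.9 in WT, 30.0, 34.8 and 35.2 in C14R, and 36.2, 35.6 and 37.1 in deletion libraries. The ratio of the means was 5.46 in WT, 5.72 in C14R and 6.20 with the deletion, with no overlap of the days. On the log2(FPKM + 1) scale GABBR1 rose by 2.27 in WT (SE 0.06, limma adjusted p = 5.76e-16), 2.33 in C14R (adjusted p = 3.97e-16) and 2.45 in deletion libraries (adjusted p = 1.95e-16). UBD, which shares exon bases with GABBR1 on the same strand, did not exceed 0.206 FPKM. GABBR2, without which GABBR1 is known to be held inside the cell, had 0 to 0.0112 FPKM at day 0 and 0.0184 to 0.0893 by day 18, and held at most 0.271% of the summed FPKM of the pair.

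**Figure D4:**
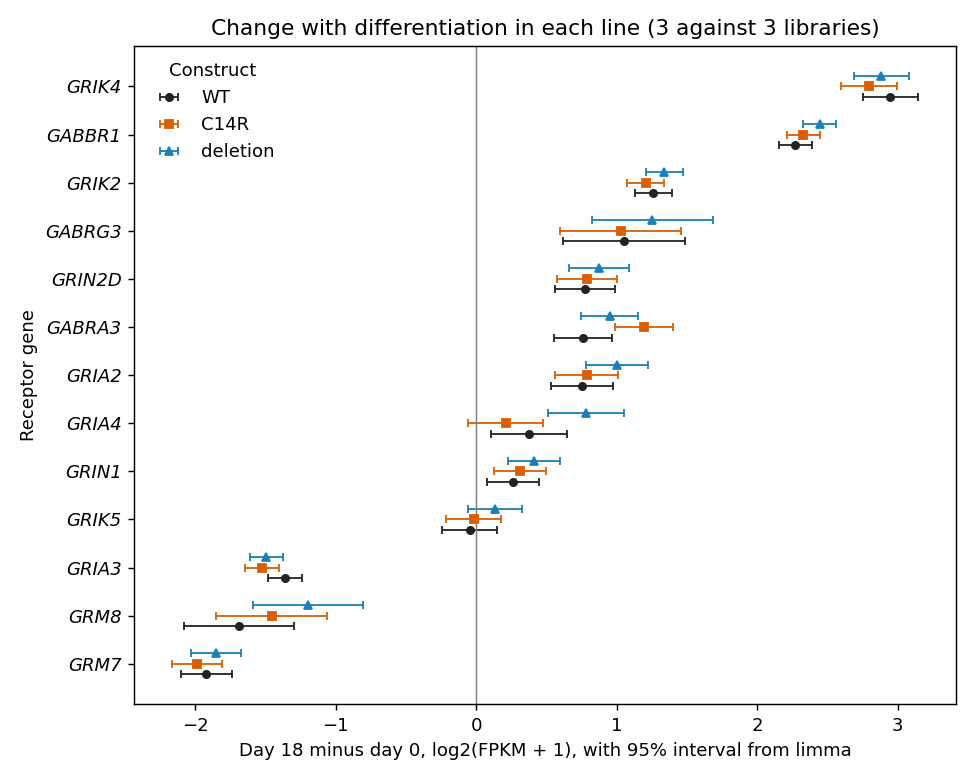
Change from day 0 to day 18 on the log2(FPKM + 1) scale for the tested receptor genes reported here in each line, with 95% intervals from limma (3 against 3 libraries). GRIK4 and GABBR1 lie above 2 and GRIA3, GRM7 and GRM8 below -1 in all 3 lines, and the intervals for GRIK5 include 0.

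Ordered by level, the leading receptor genes reported here ran at day 0 GRIA3 (mean 14.1 FPKM over 9 libraries), GRIK2 (12.8), GRIK5 (12.7), GRM7 (8.16), GRM8 (6.72) and GABBR1 (5.91). Values of neighbours in this order overlapped between GRIA3 and GRIK2, GRIK2 and GRIK5, GRM7 and GRM8, and GRM8 and GABBR1. At day 18 the order was GABBR1 (34.2), GRIK2 (32.1), GRIK5 (12.95), GRIK4 (8.82), GABRA3 (7.40), GRIA2 (5.86), GRIA3 (4.50) and GRIN1 (4.49). Neighbours overlapped between GABBR1 and GRIK2, GRIK4 and GABRA3, GABRA3 and GRIA2, GRIA2 and GRIA3, and GRIA3 and GRIN1. GRM7 was the lowest of the 14 tested genes at day 18.

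These are bulk samples, so a change in the number of cells that express a gene and a change in its RNA per cell cannot be told apart. The sum of 6 markers of mesenchymal-type cells (PRRX1, COL1A1, COL1A2, TWIST1, LUM and DCN) fell in the same direction as GRIA3, GRM7 and GRM8. It was 212 to 224 FPKM at day 0 and 86.6 to 101 at day 18. Most of this sum was TWIST1, with 159 to 174 FPKM at day 0 and 75.6 to 84.7 at day 18. Each of the 6 genes was lower in every day 18 library than in any day 0 library. Of the 6, 4 had a mean of at least 1 FPKM, and PRRX1 did not exceed 0.0569 at day 18. The part of this shift in the receptor falls was not tested. Astrocyte markers other than SLC1A2 did not exceed 0.293 FPKM in any library. The sum of 5 oligodendrocyte and Schwann cell markers was 3.67 to 5.21 FPKM at day 0 and 7.29 to 9.46 at day 18, with S100B at 0.938 to 2.16 and 4.27 to 6.49; its part in the receptor rises was not tested.

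With the limit lowered to a mean of 0.1 FPKM, 26 receptor genes were tested and 15 rose and 4 fell in WT, where 65.6% of all 17319 genes passed. In C14R and in deletion libraries 14 rose and 4 fell, against 65.6% and 66.3% of all genes. GRIK3, GRM3 and GABRD passed upward in all 3 lines. GRID1, a delta receptor subunit that binds cerebellins rather than opening to glutamate, passed downward in C14R (log2 change -0.48, limma adjusted p = 0.000637) and in deletion libraries (-0.33, adjusted p = 0.0104). Its FPKM at day 0 were 0.370, 0.798 and 0.805 in WT, 0.666, 1.00 and 0.899 in C14R, and 0.807, 0.746 and 0.807 in deletion libraries. At day 18 they were 0.454, 0.353 and 0.597 in WT, 0.328, 0.238 and 0.418 in C14R, and 0.433, 0.389 and 0.442 in deletion libraries; the days overlapped in WT alone. GRIN3A, an NMDA subunit that lowers calcium entry, passed upward in WT (0.17, adjusted p = 0.0479) and C14R (0.20, adjusted p = 0.0218).

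The ZNHIT3 variants did not move any receptor gene past the threshold. At day 0, 0 of the 14 genes passed in C14R against WT (0% of all genes tested) and 0 in deletion against WT (0.029%). At day 18, 0 passed in C14R (0.0363% of all genes) and 0 in deletion libraries (0.0725%), and 0 passed in the interaction of either variant with day (0% for C14R and 0.0145% for deletion). At an unadjusted p under 0.05 from limma there were 0 and 2 of the 14 genes at day 0, 2 and 2 at day 18, and 1 and 3 in the interactions, in the order C14R and deletion. The same limit was met by 2.81% and 6.22% of all genes at day 0, 11.1% and 11.4% at day 18, and 5.73% and 7.36% in the interactions. C14R and deletion were compared with the same WT libraries. With the limit lowered to a mean of 0.1 FPKM, 0 of 26 receptor genes passed in any of these comparisons, where 0% to 0.052% of all genes passed (0.0231% and 0.052% for deletion at day 0 and day 18, 0.0346% for C14R at day 18 and 0.0115% for the deletion interaction).

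The intervals show what size of difference these libraries leave possible. For GABBR1, GRIA3 and GRIK2, at day 18, the 95% intervals for a variant against WT had bounds between -0.30 and 0.26 on the log2 scale. For GRIK4 at day 18 the difference was -0.14 in C14R (interval -0.33 to 0.06; -0.06 without C14R replicate 1 of day 18) and -0.01 in deletion libraries (interval -0.20 to 0.19). For GABRG3, the gene with the widest intervals, they ran from -0.46 to 0.41 in C14R and from -0.53 to 0.34 in deletion libraries.

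The smallest unadjusted p at day 18 was that of GRIA3 in deletion libraries. GRIA3 differed from WT by -0.14 in C14R (limma unadjusted p = 0.0266, adjusted p = 0.374) and -0.18 in deletion libraries (unadjusted p = 0.00567, adjusted p = 0.25), and all 6 variant libraries lay below the 3 WT libraries. GRIA4 differed in deletion libraries from WT at day 0 by -0.31 (unadjusted p = 0.0281, adjusted p = 0.773), and the groups overlapped; without deletion replicate 1 of day 0 the difference was -0.17. GABBR1 differed in deletion libraries from WT at day 18 by 0.14 (unadjusted p = 0.0231, adjusted p = 0.363). The day change of GABRA3 was larger in C14R than in WT by 0.44 (interval 0.15 to 0.73, unadjusted p = 0.00556, adjusted p = 0.673), and without C14R replicate 1 of day 18 by 0.47 (limma adjusted p = 0.507). GABRA3 itself was 0.24 higher in C14R than in WT at day 18 (unadjusted p = 0.0251, adjusted p = 0.367). These values do not pass the correction over all genes.

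**Figure D5:**
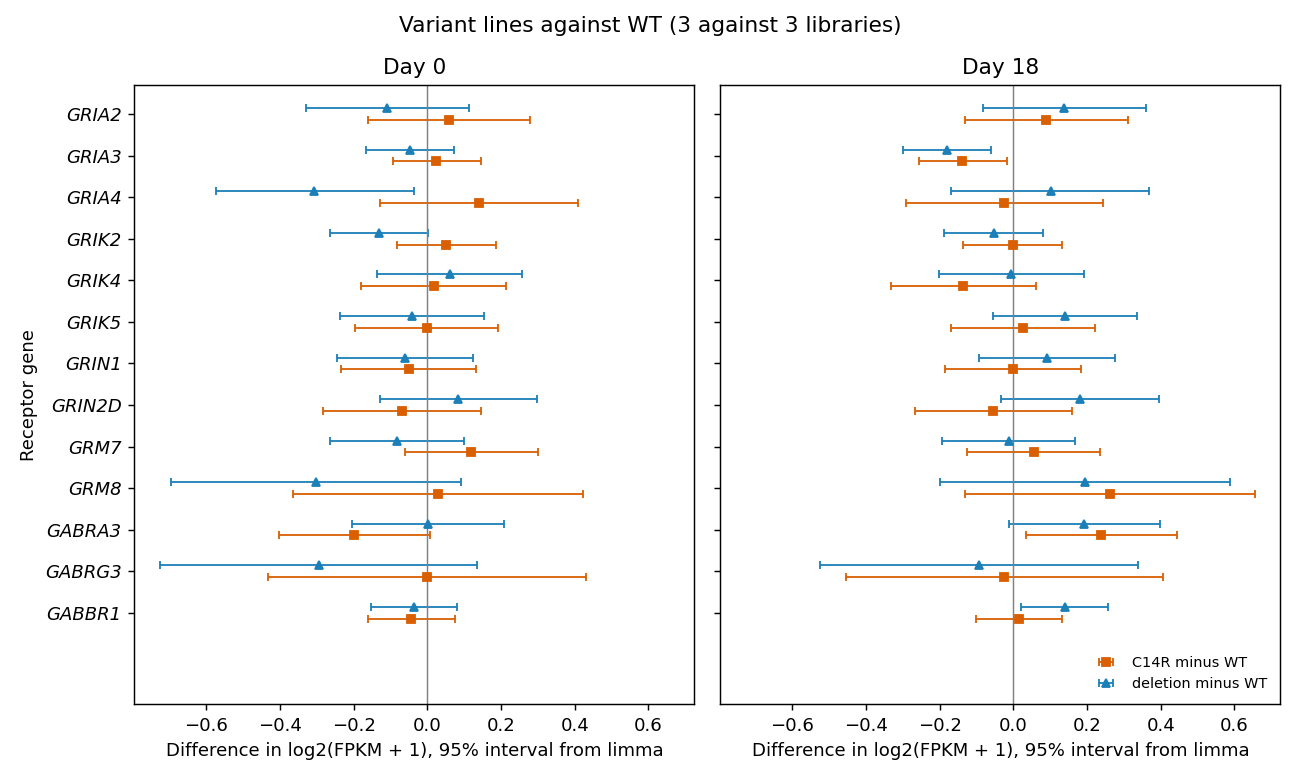
Difference of each variant line from WT on the log2(FPKM + 1) scale for the tested receptor genes reported here at day 0 and day 18, with 95% intervals from limma (3 against 3 libraries). Most intervals include 0; GRIA3 lies below 0 for both variants at day 18 and GRIA4 for the deletion at day 0, GABRA3 for C14R and GABBR1 for the deletion lie above 0 at day 18, and no difference passed the adjusted threshold.

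The genes that make, move and anchor these transmitters and receptors were read from 6 lists. Their counts in WT stand against 72.2% of all genes tested, 38.2% higher and 34.0% lower, and were read as a description. GRIP1, SLC1A2 and CAMK2B passed the limit for testing through day 18 alone, and GRIP2, CBLN2 and CNIH3 through day 0 alone. A change between the days was thus built into their selection and into the counts that hold them. Of 21 excitatory scaffold genes 18 were tested, and 9 rose, 2 fell and 7 did not pass in WT, a smaller share than that of all genes (median log2 change 0.27, against 0.03 over all genes). DLG2, which encodes the postsynaptic scaffold PSD-93, went from a median of 1.98 FPKM at day 0 to 36.1 at day 18 (log2 change 3.66 in WT, limma adjusted p = 4.55e-16). GRIP1, which binds GRIA2 and GRIA3, went from 0.45 to 5.91 (2.25, adjusted p = 3.68e-12), while its relative GRIP2 fell with a smaller change (-0.59, adjusted p = 8.09e-06). SHANK1 rose by 1.16 (adjusted p = 2.31e-09) and DLG4, which encodes PSD-95, by 0.99 (adjusted p = 6.03e-11).

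Of 22 ionotropic receptor auxiliary genes 12 were tested, and 7 rose, 2 fell and 3 did not pass in WT (median 0.46). FRRS1L, needed for AMPA receptor assembly, rose from a median of 3.58 to 12.1 FPKM (1.58 in WT, limma adjusted p = 6.34e-10), and CNIH2, an AMPA receptor auxiliary subunit, from 11.8 to 25.8 (1.15, adjusted p = 2.9e-09). SRR, the enzyme that makes the NMDA receptor co-agonist D-serine, rose by 1.16 (adjusted p = 3.31e-07) and CACNG7, an auxiliary subunit of the stargazin family, by 1.03 (adjusted p = 6.3e-10). NETO2, the kainate receptor auxiliary subunit, fell from a median of 25.6 to 16.3 FPKM (-0.67, adjusted p = 2.65e-08), opposite to GRIK2 and GRIK4, and NETO1 was listed at 0 in all libraries.

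Of 16 GABA receptor auxiliary and anchoring genes 13 were tested, and 9 rose and 4 fell in WT (median 0.26). KCTD12, an auxiliary subunit of GABA-B receptors, fell from a median of 52.1 to 6.89 FPKM (-2.78 in WT, limma adjusted p = 2.68e-16), against the rise of GABBR1. GABARAPL1, a relative of the GABA-A receptor associated protein that also serves in autophagy, rose from 4.83 to 32.3 FPKM (2.54, adjusted p = 1.06e-16). GPHN, which encodes the GABA-A receptor scaffold gephyrin, fell by 0.73 (adjusted p = 5.8e-07), and LHFPL4, which links GABA-A receptors to neuroligin, rose by 0.77 (adjusted p = 1.02e-06).

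Of 9 genes of glutamate and GABA synthesis and breakdown 6 were tested, and 3 rose, 2 fell and 1 did not pass in WT (median 0.27); in each of the other lines 3 rose and 3 fell. ABAT, the transaminase that breaks down GABA, rose from a median of 16.3 to 31.8 FPKM (0.91, limma adjusted p = 2.43e-12), and ALDH5A1, the next enzyme on that route, by 0.70 (adjusted p = 2.23e-08). GLS2, a glutaminase, rose by 0.54 (adjusted p = 0.000423). The enzymes that make GABA were near 0, with GAD1 at most 0.543 FPKM and GAD2 listed at 0 in all libraries.

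Of 13 transporter genes 3 were tested, and SLC1A2 and SLC1A1, which take up glutamate, rose in WT by 1.77 (limma adjusted p = 4.13e-12) and 0.73 (adjusted p = 1.61e-06), while SLC6A11, which takes up GABA, fell by 0.39 (adjusted p = 0.00738). The vesicular glutamate transporter SLC17A7 had 0 to 0.165 FPKM at day 0 and 0.964 to 1.61 by day 18, and SLC17A6 did not exceed 0.0154. Of the 2 chloride carriers, SLC12A2, which loads neurons with chloride, rose by 0.21 in WT (adjusted p = 0.00791) but did not pass in C14R (0.13, adjusted p = 0.0742) or deletion libraries (0.13, adjusted p = 0.0876). SLC12A5, which extrudes chloride in mature neurons, had 0.25 to 0.466 FPKM at day 0 and 0.668 to 1.35 by day 18, and was under the limit for testing. No gene of the 6 lists passed in a comparison of a variant with WT.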

How the data were processed

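The authors deposited one table of FPKM, one value per gene symbol and library; the submitters' processing notes name TopHat2, STAR, Cufflinks 2.2.1 and hg38 without their roles, and the annotation and strand use are not given in the sources used here. Columns were matched to samples by title, and 0 columns lacked a sample. From these values log2(FPKM + 1) was computed, genes with a mean of at least 1 FPKM were kept (13785 of 26372), and one linear model over the 18 libraries and 6 groups was fitted with limma 3.58.1 in R 4.3.3, with a mean-variance trend and Benjamini-Hochberg adjustment over all tested genes of each comparison (threshold 0.05). The fit was tested on simulated data. Changes on this scale understate those of low genes.

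The receptor genes, lists and tests were chosen with earlier results of these data known. Some genes are not reported here by name, but counts include them. Values in each library are given for the highest gene of each class and the 8 tested genes with the largest change in WT. Members under the limit are named where a group mean reached 0.5 FPKM. Up to 4 genes per list are named by the size of their change. Other genes of the lists and other genes near 0 are named after their values were seen. Positions come from GENCODE release 29, matched by symbol for all 47 genes, and promoters from RefSeq. The alternatives were another pseudocount, 3 other filters, 3 scalings, the replicate block, fewer libraries, no trend, a log2 change of at least 1 and each library left out.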

Additional observations from a re-analysis of the deposited data

How the results depend on the processing

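Counts of receptor genes past the threshold between the days, 13 for WT, 12 for C14R and 13 for the deletion, moved by over 1.5 times only with other filters or a minimum change. Without a filter they were 24, 19 and 20 of 44 genes, where 54.2%, 53.9% and 54.6% of all genes passed. With a mean of at least 5 FPKM they were 5, 5 and 5 of 6 (75.5%, 76.4% and 76.3% of all genes), and with a log2 change of at least 1 the WT count was 8 of 14 (14.1% of all genes). Those 8 include GRIK4 and GABRG3, which passed the limit for testing through day 18 alone, so the count was read as a description. Leaving out 1 library at a time gave 11 to 13 for WT, 12 for C14R and 13 for the deletion, with 11 when WT replicate 3 of day 0 was left out. Leaving out small RNA genes with rescaling shifted the WT median log2 change over the whole table from 0.03 to 0.20, and the higher share of called genes from 52.9% to 68.5%; relative to that median GRIN1 rose by 0.22 and GRIK5 changed by -0.06 in WT. GRIA4 then also passed in C14R (0.33, limma adjusted p = 0.0232). Variant and interaction counts were 0 in every alternative run. Replicate numbers did not pair libraries: of 45 correlations of same-numbered libraries (-0.36 to 0.17) 6 exceeded 0.1, and 2 of 18 libraries correlated best with their own number; the replicate block left the counts at 13, 12 and 13. Absolute depth is unknown, so genes listed at 0 are not shown to be silent.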
